A study of Mus musculus with 30 samples.

Results

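The mitochondrially encoded RNAs are the transcripts of the small circular genome inside mitochondria. They were taken as all genes that the deposited tables place on chromosome MT, which gave 37 of 41388 genes: 13 mRNAs, 2 rRNAs and 22 tRNAs. No measured value entered that rule, though it was chosen with earlier results of these data known. RNA was read in 20 libraries from mice with changed dosage of A1cf, whose product binds RNA and assists APOBEC1 in editing apolipoprotein B mRNA. Plated hepatocytes came from 12-week-old mice, in 3 pools labelled A1cf_Tg/+ (Tg) and 3 pools of wild-type C57BL/6J cells kept overnight on collagen. Whole livers were taken at 12 months: 4 Tg and 4 C57BL/6J pools in one sequencing study, and 3 pools of A1cf_-/- (knockout) livers and 3 of C57BL/6NJ livers in a separate one. Each pool mixed RNA of 3 to 4 mice after oligo(dT) selection, which captures RNA with a poly(A) tail. The labels do not name the promoter of the transgene, the background of the mutant mice, or whether pools share mice, so p-values measure the spread between pools. RNA that A1CF had bound was also read from Tg hepatocytes, in 10 CLIP libraries.

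Mitochondrial DNA is transcribed from both strands into long precursors, and the tRNAs that punctuate them are cut out to release the rRNAs and mRNAs between. The mRNAs encode core subunits of respiratory complexes I, III and IV and of the ATP synthase, and the rRNAs build the mitochondrial ribosome. Most of the mRNAs receive short poly(A) tails, and in some of them the tail supplies the end of the stop codon. Liver cells are rich in mitochondria, so mitochondrial RNA is a large fraction of their polyadenylated RNA.

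RNA-seq totals ran from 17044839 to 37211328 counts, so a gene at 0 could hold at most 3 counts of those totals. These limits, like all counting limits here, leave out PCR copies. The check of the targeted gene was met by the knockout label and not by the Tg label: A1cf stood at 20.1 to 28.9 CPM (counts scaled to a library total of 1e6) in knockout and 199 to 237 in C57BL/6NJ livers. It stood at 156 to 174 CPM in the livers labelled Tg and 216 to 279 in C57BL/6J livers, and at 7.36 to 10.5 CPM in hepatocytes labelled Tg and 6.46 to 11.0 in wild-type hepatocytes. Whether the transgene holds the counted exons of A1cf is not given in the sources used here. These counts therefore cannot show whether the transgene was expressed. All 10 hepatocyte markers were tested in each comparison, and their summed level was lower in livers labelled Tg (77084 to 90613 CPM) than in C57BL/6J livers (108885 to 116531). Skeletal muscle markers summed to 2656 CPM in C57BL/6J liver pool 2, to 26.7 to 152 in the knockout pools and to 1.15 to 4.45 in the other 10 liver pools, where 1 to 8 of the 16 were at 0.

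Of the mRNAs, 3 end in a lone T of an incomplete stop codon, and they are shown because a poly(A) tail, the feature that oligo(dT) captures, has to complete them. The last 18 bases of each are given 5′ to 3′ from GENCODE M21 transcripts (GRCm38), with the lone T in capitals. The genes are mt-Co3 at MT 8607 to 9390, mt-Nd4 at 10167 to 11544 and mt-Cytb at 14145 to 15288, all on the plus strand and each a single exon.
mt-Co3: tttattgatgaggatctT
mt-Nd4: ttacaggcctgacaataT
mt-Cytb: tactaaaattatatccaT
The other 10 mRNAs carry a complete TAA or TAG.

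A second set of sequences matters for where reads can be placed. The nuclear genome holds a copy of part of the mitochondrial genome, in 7 annotated pseudogenes on the minus strand of chromosome 1 (GRCm38, 24611535 to 24616197). The transcripts of these pseudogenes were compared base by base with the members, and their unbroken runs of identity began at MT 6394 and ended at 11042, a stretch of 4649 bases. The bases between the pseudogenes were not compared. The transcripts of 5 of the 7 pseudogenes were 100% identical to mitochondrial sequence. Gm28438 matched mt-Nd3 (MT 9459 to 9806) in all of 345 bases but 1, the substitution T3C, counted from the first base of mt-Nd3. Gm29216 matched mt-Co1 (MT 5328 to 6872) without a break over its last 479 bases, and the last mismatch before that run is A1066T, counted from the first base of mt-Co1. Both places are shown with the mismatch in capitals. The other 5 mismatches of Gm29216 lie in the 12 bases before the capital and are left in lower case.
mt-Nd3: atTaacctgtacactgttatcttc
Gm28438: atCaacctgtacactgttatcttc
mt-Co1: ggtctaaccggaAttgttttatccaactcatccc
Gm29216: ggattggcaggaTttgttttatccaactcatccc
Between the ends of the stretch lie 6 mRNAs whole (mt-Co2, mt-Atp8, mt-Atp6, mt-Co3, mt-Nd3 and mt-Nd4l), 5 tRNAs (mt-Ts1, mt-Td, mt-Tk, mt-Tg and mt-Tr), 31.0% of mt-Co1 and 63.6% of mt-Nd4. Of the 6 mRNAs, 5 were matched by a pseudogene transcript over nearly all of their bases, but mt-Atp8 over 43 of 204; mt-Ts1 was matched over 3 bases and the other 4 tRNAs over 0.

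The 6 mRNAs inside that stretch had almost no counts in 14 libraries and from 15 to 3716 counts in the other 6. They encode a subunit of cytochrome oxidase that binds copper (mt-Co2), a further oxidase subunit (mt-Co3), ATP synthase subunits (mt-Atp6 and mt-Atp8) and complex I subunits (mt-Nd3 and mt-Nd4l). In the 6 hepatocyte libraries, 5 of them were at 0 throughout and mt-Nd3 held 3 to 5 counts. In the 8 Tg and C57BL/6J liver libraries, mt-Atp6, mt-Atp8 and mt-Nd4l were at 0, mt-Co2 and mt-Co3 held 1 count in 1 library each, and mt-Nd3 held 1 to 7. mt-Nd3, the member with the mismatch shown above, was thus the only mRNA of the 6 with a count in each of these 14 libraries. In the knockout and C57BL/6NJ libraries, mt-Co2 held 2286 to 3716 counts, mt-Atp6 2056 to 2987, mt-Co3 1529 to 2040, mt-Nd4l 769 to 1335 and mt-Nd3 256 to 393. mt-Atp8 was the lowest mRNA there, with 50, 15 and 104 counts in the knockout pools and 95, 162 and 25 in the C57BL/6NJ pools. The groups overlapped in all 6.

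The pseudogenes of the nuclear copy divided the libraries in the same way. Together they held 0 to 13 counts in the 14 libraries and 14295 to 22068 in the knockout and C57BL/6NJ libraries. Gm10925, the copy of mt-Atp6, held 3659 to 7707 of these counts, and Gm29216, the copy of the end of mt-Co1, held 2729 to 4850. mRNAs outside the stretch did not divide the libraries so: mt-Nd1 held 44631 to 146103 counts in the 14 libraries and 147587 to 207647 in the other 6. Where the sequences are identical, counts cannot tell which of them a read came from, so levels of mt-Co2, mt-Atp6, mt-Co3, mt-Nd3 and mt-Nd4l are uncertain in every library, as are those of mt-Co1 and mt-Nd4 in part. mt-Atp8 was matched in its end alone, where it overlaps mt-Atp6, and the rest of it was not compared. Sequencing study, mouse substrain and read assignment differ together between these sets of libraries and cannot be told apart.

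**Figure D1:**
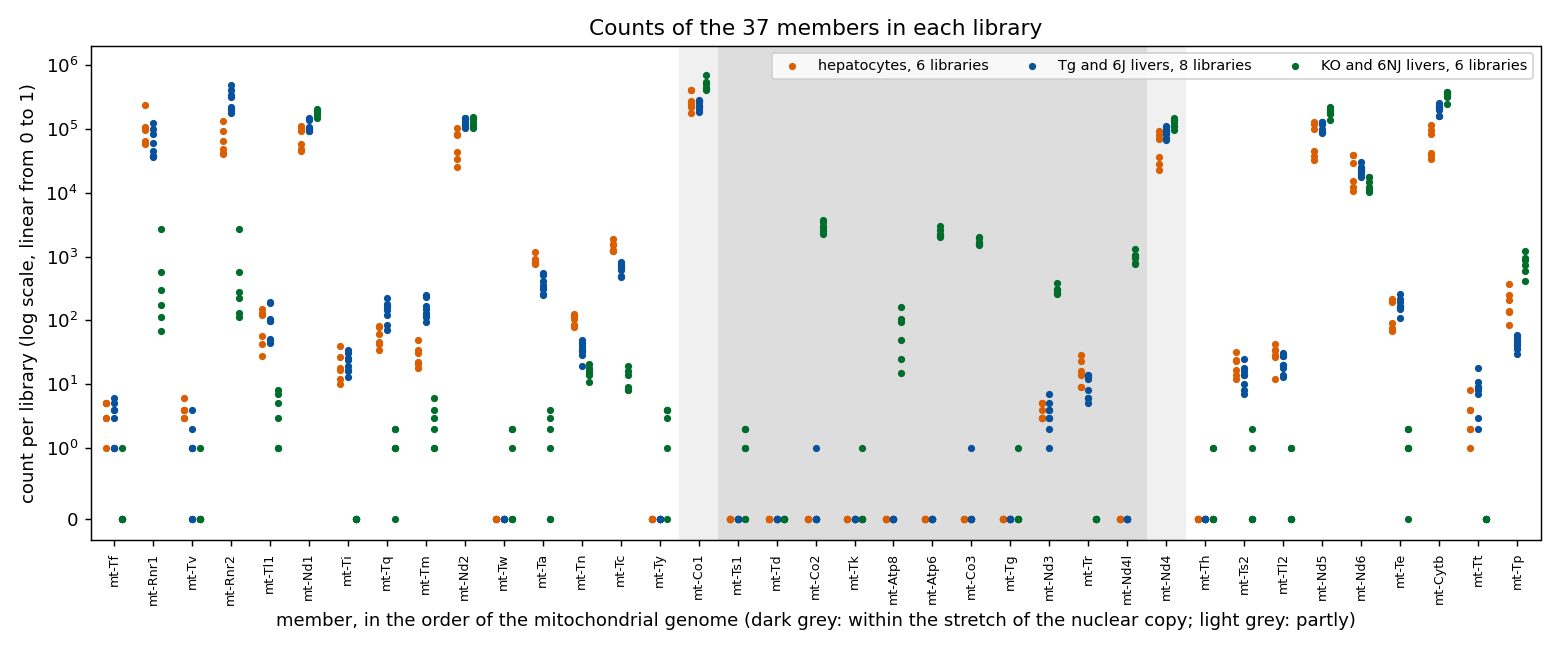
Counts (y axis, log scale, linear from 0 to 1) of the 37 members in the order of the mitochondrial genome (x axis), with 1 point per library for 6 hepatocyte, 8 Tg and C57BL/6J liver and 6 knockout and C57BL/6NJ liver libraries. Within the dark grey stretch of the nuclear copy, mt-Co2 is at 0 or 1 in 14 libraries and at 2286 to 3716 in 6, while mt-Rnr1 and mt-Rnr2 are lowest in those same 6.

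The rRNAs divided the libraries the other way. mt-Rnr1 (MT 70 to 1024), the RNA of the small ribosomal subunit, held 58462, 65732 and 94753 counts in Tg hepatocytes and 103810, 233503 and 107758 in wild-type hepatocytes. In livers it held 36017, 124002, 98768 and 84442 counts in the Tg pools and 37497, 59459, 45129 and 37783 in the C57BL/6J pools. The knockout pools held 295, 69 and 2661 counts and the C57BL/6NJ pools 114, 575 and 173. mt-Rnr1 was thus at least 36017 counts in each of the 14 libraries and at most 2661 in the other 6.

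mt-Rnr2 (MT 1094 to 2675), the RNA of the large subunit, followed. It held 40417, 41390 and 91737 counts in Tg and 48310, 131455 and 65226 in wild-type hepatocytes. In Tg livers it held 201934, 488760, 414469 and 338790 counts, and in C57BL/6J livers 200655, 319787, 219001 and 179265. In knockout livers it held 279, 133 and 2692 counts, and in C57BL/6NJ livers 115, 566 and 223. The rRNAs together made 15.7% to 37.5% of mitochondrial counts in the 14 libraries and 0.0149% to 0.392% in the other 6, where knockout pool 3 was highest.

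Within the rRNAs, the balance of the subunits differed between hepatocyte and liver libraries. Per base of gene length (RPKM, CPM divided by length in kilobases), mt-Rnr2 was 0.281 to 0.584 times mt-Rnr1 in the 6 hepatocyte libraries and 2.38 to 3.38 times in the 8 Tg and C57BL/6J livers, with no overlap. In the 6 knockout and C57BL/6NJ livers the ratio was 0.571 to 1.16, on few counts. Cells, age and plating differ together between hepatocytes and livers. Library totals differed as well, at 26144213 to 37211328 counts in hepatocytes and 17044839 to 25315849 in the 8 Tg and C57BL/6J livers. No test was made, and the parts of these differences cannot be told apart.

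**Figure D2:**
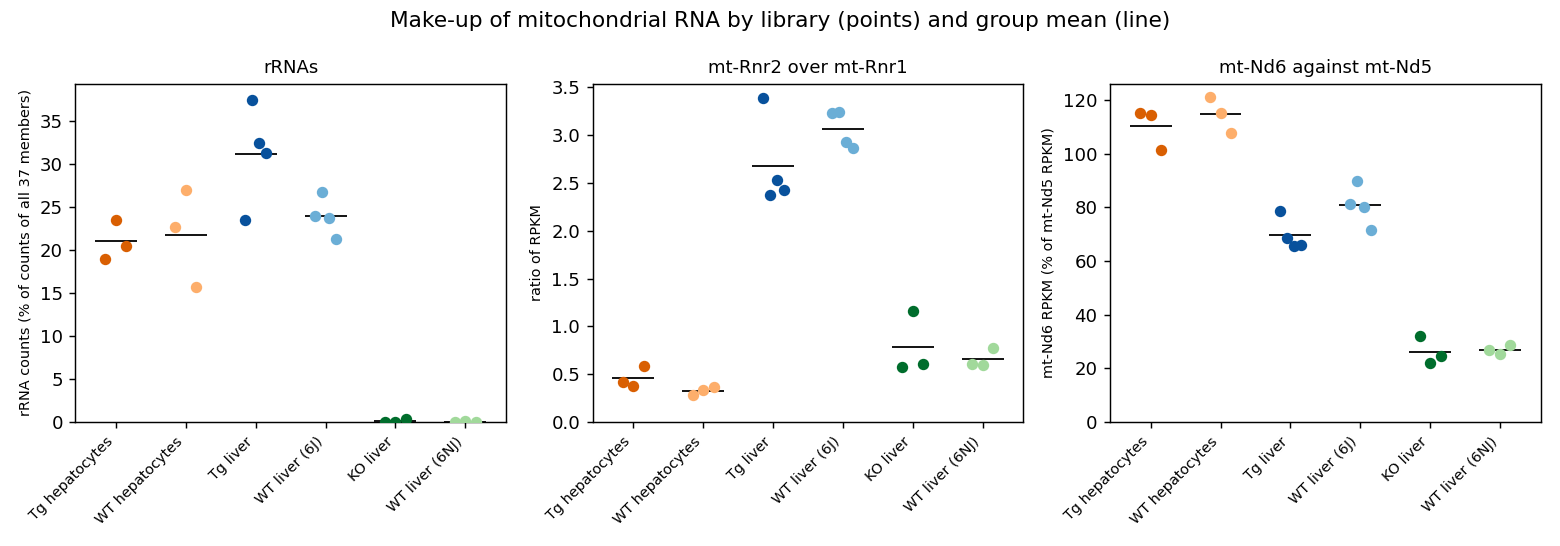
Measures of the make-up of mitochondrial RNA (y axes) by group (x axis), 1 point per library and a line at the group mean: the rRNA share of mitochondrial counts in percent, the ratio of mt-Rnr2 to mt-Rnr1 RPKM, and mt-Nd6 RPKM in percent of mt-Nd5 RPKM. The ratio is 0.281 to 0.584 in hepatocytes and 2.38 to 3.38 in Tg and C57BL/6J livers, and the mt-Nd6 level is lowest in knockout and C57BL/6NJ livers.

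Among the mRNAs, mt-Co1, the catalytic subunit of cytochrome oxidase, had the highest RPKM in hepatocytes. Its level was 3780, 3463 and 6126 RPKM in Tg and 5358, 7235 and 7521 in wild-type hepatocytes. Livers held 8187, 9005, 8772 and 7828 RPKM in the Tg pools and 6878, 6658, 8067 and 7827 in the C57BL/6J pools. Knockout livers held 10803, 9930 and 9604 RPKM and C57BL/6NJ livers 10158, 10205 and 12910. Every liver level but those of C57BL/6J pools 1 and 2 was above the highest hepatocyte level.

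mt-Cytb, the cytochrome b of complex III, differed more between hepatocytes and livers. It stood at 903, 890 and 3268 RPKM in Tg and 1111, 2726 and 2040 in wild-type hepatocytes. Tg livers held 7568, 11203, 9974 and 10491 RPKM and C57BL/6J livers 7970, 8046, 10175 and 10132, where mt-Cytb passed mt-Co1 in 7 of these 8 pools. It stood at 10527, 10018 and 9280 RPKM in knockout and 8251, 9622 and 9233 in C57BL/6NJ livers. No liver pool overlapped the hepatocyte pools, and how common this was over all genes was not computed.

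mt-Nd6, a complex I subunit, is the only mRNA of the light strand (MT 13552 to 14070, minus strand), and it overlaps the end of mt-Nd5 on the other strand. It stood at 647, 617 and 2124 RPKM in Tg and 896, 2048 and 2154 in wild-type hepatocytes. Tg livers held 2079, 2463, 2269 and 2339 RPKM and C57BL/6J livers 2525, 2340, 2226 and 2010. Knockout livers held 1127, 741 and 794 RPKM and C57BL/6NJ livers 780, 828 and 973. Against mt-Nd5, its RPKM was 101% to 121% in hepatocytes, 65.6% to 89.7% in Tg and C57BL/6J livers and 22.2% to 32.1% in the other livers, so the 3 sets did not overlap. The strand setting of the counting is not given in the sources used here, so sense and antisense reads cannot be told apart, and these levels are uncertain.

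mt-Nd1, mt-Nd2, mt-Nd4 and mt-Nd5 encode further subunits of complex I. mt-Nd1 ran from 1373 to 3725 RPKM in hepatocytes and from 4888 to 6912 in all livers. mt-Nd2 ran from 757 to 3011 and from 3735 to 7065, and mt-Nd5 from 538 to 2092 and from 2608 to 3598. mt-Nd4 ran from 501 to 1959 in hepatocytes and from 2734 to 3969 in livers. For each of the 4, the lowest liver pool was above the highest hepatocyte pool. The share of all genes that separate hepatocytes from livers in this way was not computed.

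The tRNAs were a small part of the counts, and 2 of them, both of the light strand, carried most of what there was in 14 libraries. mt-Tc, the cysteine tRNA, held 1219 to 1865 counts in hepatocytes and 476 to 835 in Tg and C57BL/6J livers, against 8 to 19 in the other livers. mt-Ta, the alanine tRNA, held 756 to 1164, 253 to 548 and 0 to 4 counts. The proline tRNA mt-Tp went the other way, with 85 to 376 counts in hepatocytes, 30 to 60 in Tg and C57BL/6J livers and 415 to 1235 in knockout and C57BL/6NJ livers. mt-Tp lies on the light strand as well. With the strand setting of the counting not given, sense and antisense reads cannot be told apart for mt-Tc, mt-Ta and mt-Tp. mt-Td was at 0 in all 20 libraries, and mt-Th, mt-Tw and mt-Ty held at most 4 counts in any.

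The share of all counts taken by the 37 members was lower in hepatocytes than in any liver group. Tg hepatocytes gave 1.40%, 1.39% and 3.48% and wild-type hepatocytes 2.01%, 3.71% and 3.14%. Tg livers gave 5.52%, 8.21%, 7.64% and 7.35%, and C57BL/6J livers 5.67%, 5.59%, 6.14% and 5.98%. Knockout livers gave 5.13%, 4.71% and 4.62%, and C57BL/6NJ livers 4.46%, 4.78% and 5.15%. In pooled RNA, fewer cells of a type and less RNA per cell cannot be told apart, and the same holds for mitochondria.

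**Figure D3:**
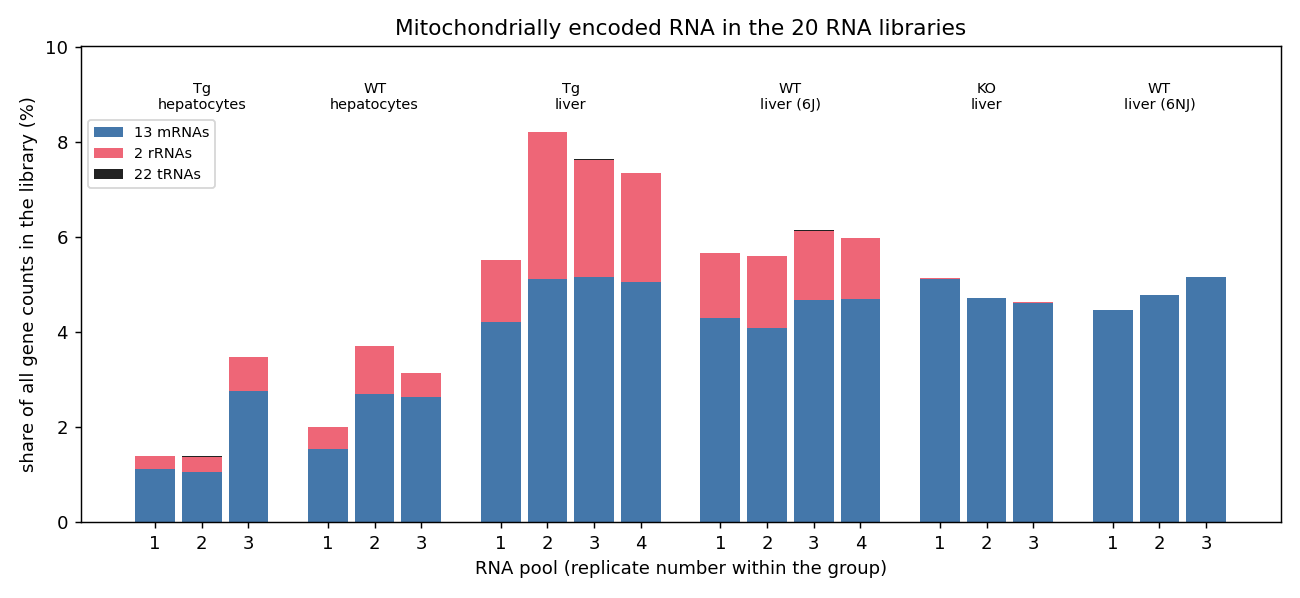
Share of all gene counts in each library (y axis, percent) taken by mitochondrial mRNAs, rRNAs and tRNAs, stacked, for the pools of the 6 groups (x axis). The bars of hepatocytes reach 1.39% to 3.71% and those of livers 4.46% to 8.21%, and the rRNA part is close to absent in knockout and C57BL/6NJ livers.

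The first comparison asked whether mitochondrial RNA differs between hepatocytes labelled Tg and wild-type hepatocytes. The mRNAs leaned lower in the Tg pools by about as much as those pools differed among themselves, and no member passed the test. The summed share was 2.09% ± 1.20 (SD, n = 3) in Tg and 2.95% ± 0.866 (n = 3) in wild-type cells. The mean log2 share differed by -0.60, Tg minus wild type (two-sided exact permutation p = 0.3, adjusted over 12 such tests 0.533; the smallest p that 3 against 3 allow is 0.1). Tg pools 1 and 2 were low and Tg pool 3 stood among the wild-type pools, so the groups overlapped. The difference was -1.04 without Tg pool 3, -0.38 without Tg pool 1 or 2 and 0.03 without Tg pools 1 and 2 and wild-type pool 1. In those 3 pools counts fell most with gene length, measured as the deviation of log CPM from the mean of the wild-type pools. Spearman correlations of this deviation with length across nuclear genes were -0.31, -0.26 and -0.21, against -0.14 to 0.19 in the other 3. The wild-type pools are themselves part of that mean, and the part of this relation in the result was not tested. The tRNA share was 0.00969% ± 0.00118 in Tg and 0.00862% ± 0.000978 in wild-type cells, a difference in mean log2 share of 0.17 (exact permutation p = 0.4, adjusted 0.533, n = 3 each).

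In the edgeR quasi-likelihood fit of all 13770 genes, 0 of 21 tested members were called at an adjusted p below 0.05, where 3.15% of all tested genes were called. An unadjusted p below 0.05 was found for 1 member, mt-Tc, and for 28.9% of all genes, and DESeq2 also called 0. All 7 tested mRNAs had estimates below 0, from -0.18 to -0.55 with a median of -0.46, against a median of -0.02 over all genes. The lowest of them was mt-Nd6 at -0.55 ± 0.55 (SE; adjusted p = 0.487), next to mt-Co1 at -0.55 ± 0.27 (adjusted p = 0.218). The others were mt-Nd4 at -0.49, mt-Nd5 at -0.46, mt-Nd2 at -0.40, mt-Nd1 at -0.26 and mt-Cytb at -0.18. mt-Rnr1 was at -0.78 ± 0.41 (adjusted p = 0.233) and mt-Rnr2 at -0.21 ± 0.52 (adjusted p = 0.785). In all, 16 of 21 members had estimates below 0, against 51.1% of all genes.

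Of the 12 tRNAs tested in hepatocytes, 2 stood higher in every Tg pool than in any wild-type pool, which 16.5% of all genes did as well. mt-Tc was at 50.1, 47.0 and 47.6 CPM in Tg and 36.6, 43.8 and 35.6 in wild-type pools (0.36 ± 0.15, edgeR adjusted p = 0.170). mt-Ta was at 31.3, 26.4 and 28.9 CPM against 24.0, 25.2 and 22.4 (0.32 ± 0.16, edgeR adjusted p = 0.223). Both lie on the light strand, where sense and antisense reads cannot be told apart here. The other 10, mt-Tl1, mt-Ti, mt-Tq, mt-Tm, mt-Tn, mt-Tr, mt-Ts2, mt-Tl2, mt-Te and mt-Tp, had estimates from -0.55 to 0.21.

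Calls in hepatocytes turned on Tg pool 3. Without it edgeR called 8 of the members, all lower, at 35.0% of all tested genes: mt-Rnr1 at -1.15, mt-Nd1 at -0.84, mt-Nd2 at -1.26, mt-Co1 at -0.79, mt-Nd4 at -1.35, mt-Nd5 at -1.35, mt-Nd6 at -1.33 and the leucine tRNA mt-Tl1 at -1.44. A fit of all 20 libraries called mt-Tc alone (0.55, adjusted p = 0.0437), at 25.0% of all genes.

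Nuclear genes for the same machinery did not lean the way the mitochondrial mRNAs did in hepatocytes, and none of them was called. Of 36 tested nuclear complex I subunits, 33 had estimates above 0, with a median of 0.38. The medians were 0.44 for 9 subunits of complex III, 0.39 for 11 of complex IV, 0.36 for 15 of the ATP synthase and 0.41 for 75 proteins of the mitochondrial ribosome, of which 60 were above 0. Complex II, which has no mitochondrially encoded subunit, had a median of 0.25 over 4. The 17 tested genes of mitochondrial DNA maintenance and transcription had a median of -0.05, the 24 of RNA processing and stability 0.05 and the 8 regulators of mitochondrial biogenesis 0.01. In summed CPM the groups overlapped for complex I (2123 to 2773 in Tg, 1734 to 2212 in wild-type pools). They overlapped for the mitochondrial ribosome too (3186 to 4150 against 2582 to 3280). In both sums wild-type pool 1 stood above Tg pool 3. Sums of complexes II and III and of the ATP synthase overlapped as well. For complex IV they did not (1434 to 1824 CPM in Tg, 1135 to 1356 in wild-type pools). Those of RNA processing and stability were lower in every Tg pool (1136 to 1156 CPM against 1164 to 1178). How often sums of other gene lists separate in this way was not computed. The part of the relation of counts to gene length in these estimates was not tested. Beside these, the estimates of all 11 markers of Kupffer cells and macrophages were above 0 (median 0.82, 0 called), with summed levels of 331 to 650 CPM in Tg and 203 to 309 in wild-type pools and none of the pools overlapping. Ccl5, a chemokine in the list of T, NK and B cell markers, rose by 1.29 (edgeR adjusted p = 0.0298). Only 2 of the 8 markers of that list were tested, 1 with an estimate above 0 and 1 below. All 8 summed to 471 to 643 CPM in Tg and 206 to 263 in wild-type pools. Cholangiocyte markers went the other way in their sum, at 406 to 670 CPM in Tg and 690 to 1223 in wild-type pools. Of their 5 estimates, however, 3 were above 0 and 2 below (median 1.31, 0 called). The part of these cell types in the values above was not tested.

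**Figure D4:**
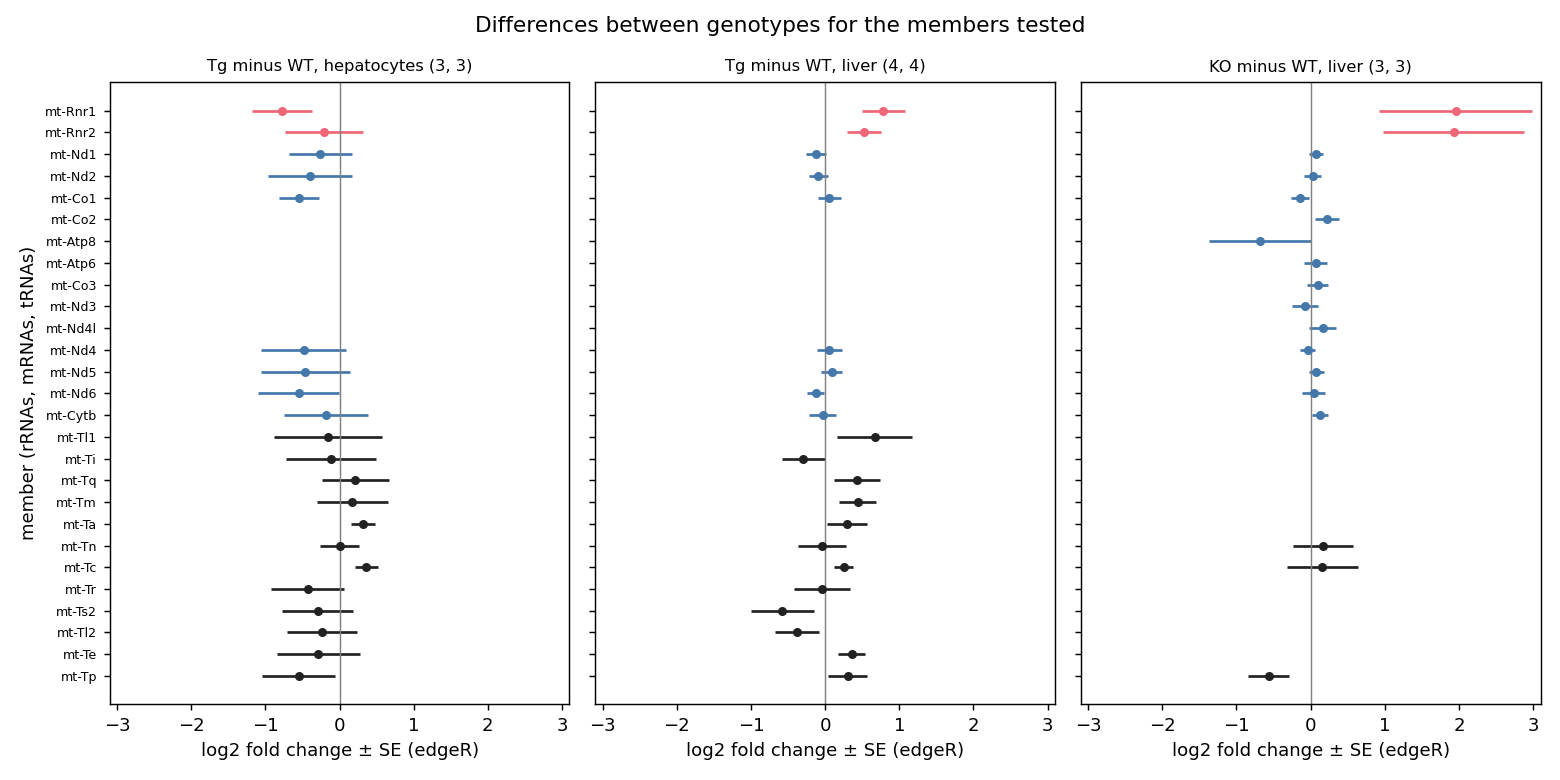
Log2 fold change ± SE from edgeR (x axes) of each member that passed the filter on low counts (y axis: rRNAs in red, mRNAs in blue, tRNAs in black) in the 3 comparisons, with the number of pools in each group. No member passed an adjusted p of 0.05. In livers labelled Tg the rRNAs lie at 0.78 and 0.52 and the mRNAs from -0.13 to 0.09.

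The second comparison set livers labelled Tg against C57BL/6J livers. The rRNA share was higher in 3 of 4 Tg pools than in any C57BL/6J pool, and so, by less, was the mRNA share. The mRNA share was 5.12%, 5.15% and 5.04% in Tg pools 2 to 4, against at most 4.70% in C57BL/6J livers. With TMM scaling the estimates of single mRNAs lay near 0, and no member passed the test. The summed share was 7.18% ± 1.16 (SD, n = 4) in Tg and 5.84% ± 0.257 (n = 4) in C57BL/6J livers, a difference in mean log2 share of 0.28 (two-sided exact permutation p = 0.143, adjusted over 12 tests 0.48; smallest possible p 0.0286). The rRNA share was 2.29% ± 0.739 against 1.40% ± 0.101, a difference in mean log2 share of 0.65 (exact permutation p = 0.114, adjusted 0.48, n = 4 each). The mRNA share was 4.88% ± 0.447 against 4.44% ± 0.296, a difference in mean log2 share of 0.13 (exact permutation p = 0.2, adjusted 0.48, n = 4 each). The tRNA share was 0.0106% ± 0.00137 against 0.00782% ± 0.000996, a difference in mean log2 share of 0.43 (exact permutation p = 0.0571, the lowest of the 12, adjusted 0.48, n = 4 each). It ran from 0.00886% to 0.0119% in Tg and from 0.00654% to 0.00897% in C57BL/6J livers, so the groups overlapped. Tg pool 1 lay within the range of the C57BL/6J pools in the rRNA and the mRNA share. Without it the difference for the summed share was 0.40.

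For each of the rRNAs the deposited levels give the same picture. mt-Rnr1 was at 1967, 6229, 4769 and 4582 CPM in Tg and 2137, 2349, 2489 and 2217 in C57BL/6J livers, and edgeR gave 0.78 ± 0.29 (adjusted p = 0.174). mt-Rnr2 was at 11030, 24553, 20012 and 18382 CPM against 11436, 12632, 12077 and 10517, with 0.52 ± 0.23 (edgeR adjusted p = 0.240). Tg pools 2 to 4 were high for both and pool 1 was not, so the groups overlapped. Without Tg pool 1, edgeR called mt-Rnr1 (1.01 ± 0.16, adjusted p = 0.0238), where 3.92% of all genes were called, and mt-Rnr2 was not called (0.68).

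In all, edgeR called 0 of 21 tested members in these livers, against 1.33% of 14110 genes; 2 members, the rRNAs, had an unadjusted p below 0.05, as did 20.3% of all genes, and DESeq2 called 0. The pools of the groups overlapped in all 21 members and failed to overlap in 11.7% of all genes. The 7 tested mRNAs ran from -0.13 to 0.09, with a median of -0.04 against 0.00 over all genes. They were mt-Nd6 (-0.13), mt-Nd1 (-0.12), mt-Nd2 (-0.09), mt-Cytb (-0.04), mt-Nd4 (0.06), mt-Co1 (0.06) and mt-Nd5 (0.09). These directions depended on scaling: with library totals and no TMM factor, the median of all genes moved by 0.14, and all 7 mRNAs were above 0. Compared within mitochondrial RNA alone, with the sum of the 37 members as library size, mt-Rnr1 was at 0.59 ± 0.22 (edgeR adjusted p = 0.217) and mt-Nd6 at -0.27. The 12 tested tRNAs ran from -0.58 (mt-Ts2) to 0.67 (mt-Tl1), with 7 above 0. Over mRNAs, rRNAs and tRNAs, 9 of the 21 members had estimates below 0, against 50.6% of all genes.

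The medians of the nuclear partners in livers labelled Tg stood near 0, and no gene of them was called. Medians were -0.01 over 36 complex I subunits, -0.15 over 9 of complex III, 0.07 over 11 of complex IV, -0.02 over 15 of the ATP synthase and 0.05 over 75 mitochondrial ribosomal proteins. For complex IV, 10 of 11 estimates were above 0, and summed levels did not overlap (1630 to 1688 CPM in Tg, 1217 to 1542 in C57BL/6J livers). Those of the mitochondrial ribosome did not overlap either (1776 to 1996 CPM against 1489 to 1766), with 49 of 75 estimates above 0. Sums of complexes I and III and of the ATP synthase overlapped. These sums use library totals with no TMM factor. The 16 tested genes of mitochondrial DNA maintenance and transcription had a median of -0.04, and the 24 of RNA processing -0.06. All 7 tested regulators of mitochondrial biogenesis had estimates below 0, with a median of -0.19. Beside these, the hepatocyte markers had 9 of 10 estimates below 0 (median -0.29), the Kupffer cell markers 10 of 11 above 0 (median 0.57; 485 to 761 CPM against 300 to 578) and the stellate cell markers 6 of 8 above 0 (median 0.65; 624 to 818 CPM against 407 to 684). Of these, Pdgfrb, a receptor of stellate cells for platelet-derived growth factor, rose by 0.86 (edgeR adjusted p = 0.0294). All 5 cholangiocyte markers had estimates above 0 (median 0.40), with sums of 51.8 to 126 CPM in Tg and 37.3 to 48.2 in C57BL/6J pools. The part of these cell types in the rRNA levels was not tested. Without C57BL/6J pool 2, which held the muscle RNA, the difference in mean log2 share of all members was 0.26.

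The third comparison set knockout livers against C57BL/6NJ livers. Summed mitochondrial RNA was nearly equal, at 4.82% ± 0.269 (SD, n = 3) and 4.80% ± 0.349 (n = 3), a difference in mean log2 share of 0.01 (two-sided exact permutation p = 1; smallest possible p 0.1). The tRNA share was 0.00227% ± 0.000798 against 0.00328% ± 0.00100, a difference of -0.54 (exact permutation p = 0.2, adjusted 0.48, n = 3 each). All 13 mRNAs were tested here, and 0 of 18 tested members were called by edgeR, against 2.98% of 15942 genes; 0 had an unadjusted p below 0.05, against 18.4% of all genes, and DESeq2 called 0. The pools of the groups overlapped in all 18 members and failed to overlap in 24.3% of all genes. The mRNAs had a median of 0.07, against -0.01 over all genes. Of the 18 members 5 had estimates below 0, against 51.1% of all genes.

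By complex, the complex I mRNAs ran from -0.07 (mt-Nd3) to 0.16 (mt-Nd4l), with mt-Nd4 at -0.04, mt-Nd2 at 0.03, mt-Nd6 at 0.04, mt-Nd1 at 0.07 and mt-Nd5 at 0.07. mt-Cytb of complex III was at 0.13 ± 0.11. In complex IV, mt-Co1 was at -0.14 ± 0.12, mt-Co2 at 0.22 ± 0.16 and mt-Co3 at 0.10 ± 0.14. In the ATP synthase, mt-Atp6 was at 0.07 ± 0.15 and mt-Atp8 at -0.68 ± 0.69. mt-Atp8 rested on 15 to 162 counts per library, and its estimate was -1.51 without knockout pool 3 and -0.16 without C57BL/6NJ pool 2. Of the tRNAs, mt-Tp was at -0.57 ± 0.28 (edgeR adjusted p = 0.323), with 19.4, 14.4 and 29.7 CPM in knockout and 37.0, 36.4 and 20.6 in C57BL/6NJ livers, and mt-Tn and mt-Tc were at 0.17 and 0.16.

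The rRNA estimates in knockout livers came from 1 pool. mt-Rnr1 was at 1.95 ± 1.03 (edgeR adjusted p = 0.352) and mt-Rnr2 at 1.93 ± 0.95 (adjusted p = 0.317), and without knockout pool 3 they were -0.57 and -0.44. With no filter on low counts, edgeR called both (adjusted p = 0.0443 and 0.0275), at 4.09% of all genes.

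Among the nuclear partners in knockout livers, Ndufb3, a small subunit of complex I, rose by 0.47 ± 0.10 (edgeR adjusted p = 0.0424), the only 1 of 36 complex I subunits to pass. Gabpa, a transcription factor of nuclear genes for respiration, fell by 0.45 ± 0.10 (edgeR adjusted p = 0.0419), the only 1 of 7 regulators of mitochondrial biogenesis to pass. Over all 15942 tested genes 2.98% passed, and 1 of 36 is close to that share. Medians were 0.10 for complex I, 0.02 for complex III, 0.14 for complex IV, 0.03 for the ATP synthase and -0.01 for 76 mitochondrial ribosomal proteins. They were -0.11 for 18 genes of mitochondrial DNA maintenance and transcription and -0.06 for 24 of RNA processing. Of 14 tested muscle markers 13 rose, among them Acta1 (9.01), the actin of skeletal muscle. Muscle is rich in mitochondria as well, and all 3 knockout pools held this RNA. All 8 stellate cell markers had estimates above 0 (median 0.45, 449 to 499 CPM in knockout, 357 to 382 in C57BL/6NJ pools). Cidea, a brown adipocyte marker, rose by 2.22 (edgeR adjusted p = 0.0439, list sums 113 to 134 CPM against 59.2 to 111). Endothelial sums were higher (525 to 549 against 471 to 495), cholangiocyte sums lower (29.6 to 33.4 against 34.8 to 75.4). Of 10 hepatocyte markers only Cps1 was called (-0.66, edgeR adjusted p = 0.0193). The part of muscle and these cell types in the mitochondrial levels was not tested.

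The differences between effects were tested as well, and no member was called. When the Tg effect of hepatocytes was subtracted from that of livers, edgeR called 0 of 22 tested members, against 0.842% of 15565 genes, with 1 at an unadjusted p below 0.05 (22.8% of all genes) and 0 by DESeq2. That member was mt-Rnr1, at 1.39 ± 0.49 (adjusted p = 0.132). Without Tg hepatocyte pool 3, edgeR called 4, mt-Rnr1 (1.71), mt-Nd4 (1.18), mt-Nd5 (1.21) and mt-Te (1.24), at 22.4% of all genes. When the knockout effect was subtracted from the Tg effect, in livers, edgeR called 0 of 28, against 1.02% of 16295 genes, with 0 at an unadjusted p below 0.05 (16.9% of all genes) and 0 by DESeq2. Of these members, mt-Atp6, mt-Atp8 and mt-Nd4l were at 0 in all Tg and C57BL/6J livers. mt-Ti, mt-Tr and mt-Tt were at 0 in all knockout and C57BL/6NJ livers. Their SEs ran from 69.9 to 3463, so no call was possible for them, and the count says nothing of them. mt-Co2 and mt-Co3 rested on 1 count in the Tg and C57BL/6J livers.

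No member had a count in the RNA recovered with A1CF. The 10 CLIP libraries held 6151 to 10902 counts each, 0 on the 37 members and 0 on the pseudogenes of the nuclear copy. Each had counts on only 1043 to 1410 of the 41388 genes, so most genes were at 0 as well. With totals this small, 0 counts allow a share of up to 0.0275% in the largest and up to 0.0488% in the smallest library. The same members took 1.39% to 3.48% of counts in RNA of Tg hepatocytes.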

How the data were processed

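RNA-seq came from 20 libraries and CLIP-seq from 10. Per the submitters' processing notes, the authors used bcl2fastq, STAR 2.0.4b and featureCounts 1.45 of Subread with GRCm38; strand setting, annotation release and handling of multiply aligned reads are not given in the sources used here. The deposited count was the unit tested. Deposited CPM and deposited RPKM were recomputed from counts to within 4.9e-10 and 1.6e-10.

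Each comparison was fitted on its own libraries over all genes: filterByExpr (minimum count 10, minimum total 15), TMM, the edgeR 4.0.16 quasi-likelihood test in R 4.3.3, Benjamini-Hochberg adjustment, threshold 0.05, two-sided. The fits were first tested on simulated counts. DESeq2 1.42.0 was an alternative, with other scalings, filters, fits and pools left out. Shares were tested by exact permutation of log2 shares (scipy 1.17.1). Sequences came from GENCODE M21 transcripts, which hold all 37 members. Named were all mRNAs and rRNAs, tRNAs that passed the filter, and up to 4 called genes per nuclear list. The members and lists were chosen with earlier results of these data known.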

Additional observations from a re-analysis of the deposited data

Results flagged for a closer look

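Of 32 values examined in the groups of 4 livers, 4 had a pool far from the other 3, by Dixon's criterion at the 95% level, which chance meets in about 1 of 20. All 4 were Tg liver pool 1. It was lowest for mt-Nd4 (3935 CPM), for mt-Nd5 (4813 CPM) and for the mRNA share of all counts (4.21%), and highest for the ratio of mt-Rnr2 to mt-Rnr1 RPKM (3.38). The 4 values are not independent, since they share a library.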

How the results depend on the processing

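The count of members called was 0 under other scalings, DESeq2, replicate number as a block and the other settings run, except in 5 fits. It was 1 in hepatocytes with all 20 libraries in one fit and 2 in knockout livers with no filter on low counts. Leaving out single pools gave 0 to 8 members in hepatocytes, 0 to 1 in Tg livers, 0 in knockout livers, 0 to 4 for the difference of the Tg effects between livers and hepatocytes, and 0 for that between the Tg and knockout effects; the highest counts came without Tg hepatocyte pool 3 and Tg liver pool 1. The difference in mean log2 share of all members ran from -1.04 to -0.38 in hepatocytes, 0.21 to 0.40 in Tg livers and -0.043 to 0.062 in knockout livers with single pools left out. It was -0.0062 in knockout livers without the 10 most abundant nuclear genes and 0.027 in hepatocytes without the 3 pools whose counts fell most with gene length, an alternative chosen after seeing the data that leaves 1 Tg pool, assumed to vary like the others; the cause was not tested.

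Single members whose estimates changed sign were none that passed the test. Without those 3 pools the hepatocyte estimates were 0.39 for mt-Rnr2, 0.30 for mt-Nd1, 0.29 for mt-Nd2, 0.18 for mt-Nd4, 0.18 for mt-Nd5, 0.047 for mt-Nd6 and 0.49 for mt-Cytb. With library totals alone, Tg liver estimates were 0.018 for mt-Nd1, 0.053 for mt-Nd2, 0.0068 for mt-Nd6 and 0.11 for mt-Cytb. With single pools left out, mt-Rnr2 ran from -0.89 to 0.30 and mt-Cytb from -1.03 to 0.16 in hepatocytes. In Tg livers mt-Co1 ran from -0.013 to 0.12, mt-Nd4 from -0.033 to 0.15 and mt-Cytb from -0.12 to 0.039. In knockout livers mt-Rnr1 ran from -0.57 to 2.89, mt-Rnr2 from -0.44 to 2.71, mt-Nd2 from -0.051 to 0.10, mt-Atp6 from -0.10 to 0.20, mt-Co3 from -0.047 to 0.19, mt-Nd3 from -0.26 to 0.043, mt-Nd4l from -0.030 to 0.41 and mt-Nd6 from -0.17 to 0.16.

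The labels do not tie pools of equal number to each other, and their deviations correlated at 0.69, -0.51 and -0.03 in hepatocytes, -0.15 to 0.05 in Tg livers and 0.01 to 0.06 in knockout livers, so the numbers were not taken as pairs. With replicate number as a block, 21, 44 and 415 genes were called in the 3 comparisons, 0 of them members, and the differences in mean log2 share were -0.60, 0.28 and 0.01. Few counts limit what can be said of most tRNAs, and small totals what can be said of the CLIP libraries.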
